A study of Mus musculus with 12 samples.

Results

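The effect of ZIP10 knockdown in DTPA-treated erythroid cells was measured by setting 3 libraries of siZIP10 plus DTPA against 2 of siControl plus DTPA. These were 5 of the 12 libraries of the study. The study's full set of libraries listed 55487 genes, and the 11379 with a mean of at least 1 TPM (a gene's transcripts per 1e+06 transcripts) were tested. All cells were G1E-ER4, 1 mouse erythroid line that lacks GATA1, the transcription factor that drives red cell maturation, and carries a GATA1 fused to the estrogen receptor. In all groups 100 nM β-estradiol switched this fusion on for 24 h, after 2 siRNA transfections 24 h apart. DTPA, which chelates extracellular zinc, was present at 25 µM over the same 24 h. The siControl and siZIP10 groups without DTPA, 3 libraries each, gave the knockdown effect at normal zinc. The third file of siControl plus DTPA held the values of siZIP10 replicate 1 for all 55487 genes and was left out. The labels call the libraries biological replicates of 1 line. The study as used here had no second siRNA, no rescue and no group given zinc back, and neither zinc nor ZIP10 protein was measured, so that low zinc below means treatment with DTPA.

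ZIP10, the product of Slc39a10, belongs to the ZIP family of transporters, which bring zinc into the cytosol, while ZnT transporters move zinc out of it. Free zinc is sensed by the transcription factor MTF1, which binds metal response elements and turns on the metallothionein genes and the zinc exporter gene Slc30a1. Maturing erythroid cells need zinc for enzymes such as the heme enzyme ALAD and for zinc finger factors such as GATA1.

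The libraries held 19.63 to 24.69 M recovered reads (1 M is 1e+06). All 11 erythroid markers passed the filter. Of them 8 fell with the knockdown at low zinc and none rose (median log2 change −0.51), beside 31.7% falls over all genes. Their summed level, mostly adult β-globin, was 39445 to 57126 TPM across libraries. It was 51220 and 57126 TPM in siControl plus DTPA and 47369, 43488 and 39445 TPM in siZIP10 plus DTPA. The siZIP10 plus DTPA libraries differed from the siControl plus DTPA libraries in make-up. Mitochondrial rRNA took 1.44%, 1.44% and 1.45% of TPM against 0.335% and 0.352%. Nuclear genes annotated as rRNA took 0.856%, 1.74% and 1.04%, highest in replicate 2, against 0.366% and 0.518%, and genes annotated as miRNA 3.29%, 4.87% and 3.40% against 1.82% and 2.49%. Nuclear protein-coding genes other than globin and ribosomal protein genes took 64.5%, 62.7% and 64.5% against 70.0% and 68.5%. None of these shares overlapped between the groups (exact two-sided permutation p = 0.2 each, the smallest p that 3 against 2 libraries allow). TPM is a share of the library, and the part of this make-up in the results below was tested only through the scaling alternatives. A lower level in such bulk samples can come from fewer cells that express a gene or from less RNA per cell, and the 2 cannot be told apart.

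Slc39a10, the target of the siRNA (ENSMUSG00000025986.6, GRCm38 chromosome 1, 46807544 to 46892852, minus strand), stood at 22.0 and 20.3 TPM in siControl plus DTPA. It stood at 5.36, 4.93 and 5.02 TPM in siZIP10 plus DTPA, from 242, 250 and 212 recovered reads against 986 and 942. The groups did not overlap, and the knockdown left 24.2% of the transcript (log2 change −1.86 on the scale of log2(TPM + 1), SE 0.12, limma adjusted p = 3.25e-07). Without DTPA the gene stood at 2.78, 2.31 and 2.78 TPM in siControl and at 0.539, 0.507 and 0.837 TPM in siZIP10. Knockdown cells under DTPA thus held 194.5% of the siControl mean of Slc39a10.

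The genes that MTF1 controls are described first. The promoter stretches of Mt1, Mt2 and Slc30a1 are shown because matches to the metal response element core lie in them. The core was searched as TGCACNC or TGCGCNC on both strands in the window from 250 bases before to 50 after the start in the RefSeq promoter table (GRCm38.p6), with matches in capitals. The stretches are Mt1 at chr8:94178989-94179138, Mt2 at chr8:94172388-94172667 and Slc30a1 at chr1:191906681-191906830, all on the plus strand.
Mt1: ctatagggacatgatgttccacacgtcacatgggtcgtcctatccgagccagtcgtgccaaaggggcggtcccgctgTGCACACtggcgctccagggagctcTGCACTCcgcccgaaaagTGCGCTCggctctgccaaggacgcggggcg
Mt2: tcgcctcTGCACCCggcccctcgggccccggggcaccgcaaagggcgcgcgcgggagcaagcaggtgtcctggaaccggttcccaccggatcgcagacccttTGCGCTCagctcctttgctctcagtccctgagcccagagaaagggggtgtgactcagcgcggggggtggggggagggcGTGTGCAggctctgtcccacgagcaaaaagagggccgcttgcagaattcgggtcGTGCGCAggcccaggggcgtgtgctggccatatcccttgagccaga
Slc30a1: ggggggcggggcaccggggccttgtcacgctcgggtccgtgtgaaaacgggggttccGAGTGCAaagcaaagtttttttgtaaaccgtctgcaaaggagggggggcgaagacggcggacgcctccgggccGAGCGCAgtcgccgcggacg
Mt1 held 3 matches, Mt2 held 4 and Slc30a1 held 2, none overlapping another, and neither of the Slc39a10 windows in the table held any. The Slc39a10 windows were chr1:46925727-46926026 and chr1:46853569-46853868, and neither covers the start of the gene span given above. Of all 32851 promoters in the table, 25.7% held at least 1 match, so that a match by itself is common.

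Slc30a1, which encodes the zinc exporter ZnT1, stood at 92.5 and 87.6 TPM in siControl plus DTPA and at 247.1, 231.6 and 247.0 TPM in siZIP10 plus DTPA. All double-treated libraries were above every other library of the study, and the level was 2.69-fold that of DTPA alone (log2 change 1.42, SE 0.05, adjusted p = 3.31e-09). At normal zinc the knockdown raised Slc30a1 by 0.47, and the difference between the 2 knockdown effects was 0.95 (adjusted p = 1.92e-06). Mt1, a metallothionein that binds zinc, stood at 170.1 and 175.5 TPM in siControl plus DTPA and at 280.2, 268.1 and 259.0 TPM in siZIP10 plus DTPA. The groups did not overlap (0.64, SE 0.06, adjusted p = 6.55e-06), and both stayed far below the 1627.4 to 1804.5 TPM of siControl. Mt2 stood at 19.2 and 15.0 TPM against 21.4, 26.2 and 18.7 TPM, with overlapping groups. Its rise of 0.35 (adjusted p = 0.033) lost its call in 8 of 23 alternatives. It was 0.18 (adjusted p = 0.313) when siControl plus DTPA replicate 2 was left out, and it was also lost when either replicate 1 or replicate 2 of siZIP10 plus DTPA was left out.

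**Figure D1:**
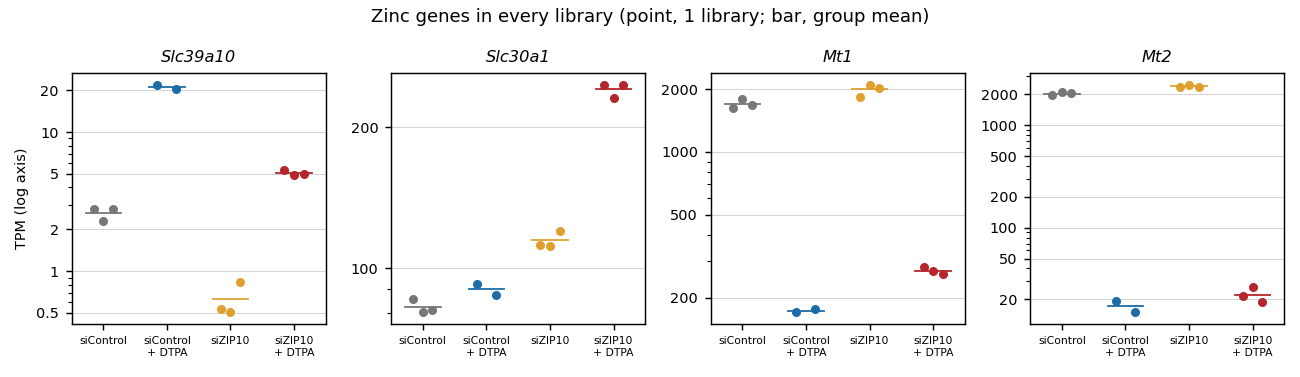
TPM of Slc39a10, Slc30a1, Mt1 and Mt2 on log axes in the 4 groups, with 1 point per library and a bar at the group mean. Under DTPA the knockdown libraries lie lower for Slc39a10, near 5 against 20.3 to 22.0 TPM, and higher for Slc30a1, at 231.6 to 247.1 against 87.6 to 92.5 TPM, while both DTPA groups lie far below the others for Mt1 and Mt2.

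Among the other zinc importers, 8 of which were tested besides Slc39a10, Slc39a6 rose by 0.47 (SE 0.08) and Slc39a1 by 0.25 (SE 0.06), and Slc39a8 fell by 0.26 (SE 0.03). Slc39a6 encodes ZIP6, the closest relative of ZIP10, and its level was 8.47 and 8.38 TPM against 12.4, 11.7 and 12.2 TPM. Leaving out siControl plus DTPA replicate 2 ended the call of Slc39a1 (adjusted p = 0.0643). Of the other exporters, Slc30a9, Slc30a5 and Slc30a10 fell by 0.41, 0.31 and 0.27. Mtf1, the gene of the sensor itself, fell by 0.29 (SE 0.06, adjusted p = 0.00185).

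Over all genes, 2426 rose (21.3% of the 11379 tested) and 3611 fell (31.7%) with the knockdown at low zinc, 53.1% in either direction. The libraries of the groups did not overlap for 29.7% of genes upward and 38.9% downward. At least 2-fold changes on the log2(TPM + 1) scale were called for 276 genes upward (2.43%) and 306 downward (2.69%). Upward calls were 40.19% of all calls, and 59.42% after each library was rescaled to its nuclear protein-coding genes (3744 rises and 2557 falls). That rescaling moved the median change of all genes from −0.04 to 0.07, so that changes near this size depend on the scale. The same siRNA at normal zinc, in libraries shared with neither group, raised 1493 genes (13.1%) and lowered 1987 (17.5%), 30.6% together. The median size of a change was 0.24 at low zinc and 0.13 at normal zinc, and Pearson's r between the changes was 0.49 across the 11379 genes, which are not independent replicates.

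Of the 3611 genes that fell at low zinc, 1516 also fell at normal zinc, which is 42.0% of the first list and 76.3% of the second. Of the 2426 that rose, 832 also rose at normal zinc, 34.3% of the first list and 55.7% of the second. The difference between the effects, tested directly as an interaction, was called higher at low zinc for 1369 genes (12.0%) and lower for 2318 (20.4%), 32.4% together. Among the 1516 genes that fell in both settings the test of the difference called the fall deeper at low zinc in 713 and shallower in 20. List counts below stand beside the shares of all genes, with 21.3% risen and 31.7% fallen at low zinc. For the difference these shares were 12.0% higher and 20.4% lower.

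**Figure D2:**
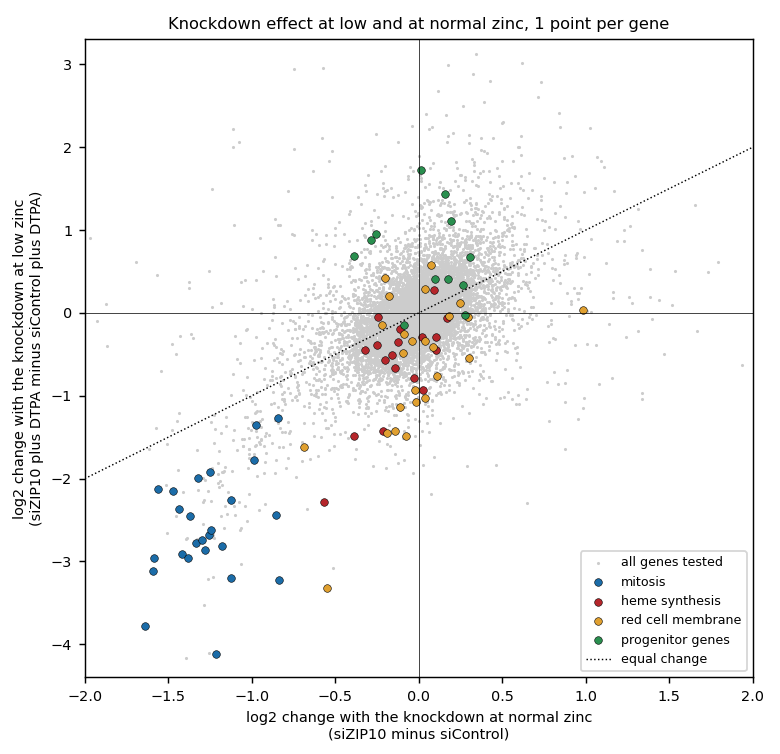
Each point is 1 gene, with the log2 change with the knockdown at normal zinc on the x axis and at low zinc on the y axis. All 25 mitosis genes lie below the dotted line of equal change, and 6 genes lie outside the x axis limit of 2.

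Cell division genes fell most. All 25 tested members of the mitosis list fell, with a median change of −2.68 beside a median of −0.04 over all genes. The median was −1.28 at normal zinc, and the difference between the effects was called lower for all 25. Ube2c, Ccnb2, Plk1 and Cdc20 are shown with promoter stretches because their promoters hold the cell cycle homology region, an element through which mitotic genes are held silent outside late cell cycle. It was searched as TTTGAA or TTCGAA on both strands, with matches in capitals. The stretches (RefSeq, GRCm38.p6) are Ube2c at chr2:164769859-164769978 and Plk1 at chr7:122159365-122159484 on the plus strand, and Ccnb2 at chr9:70421505-70421624 and Cdc20 at chr4:118437294-118437413 on the minus strand.
Ube2c: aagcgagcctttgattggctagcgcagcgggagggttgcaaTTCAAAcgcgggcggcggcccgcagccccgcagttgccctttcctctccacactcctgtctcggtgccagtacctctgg
Ccnb2: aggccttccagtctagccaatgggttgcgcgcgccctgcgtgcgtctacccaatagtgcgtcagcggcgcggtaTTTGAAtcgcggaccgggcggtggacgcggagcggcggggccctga
Plk1: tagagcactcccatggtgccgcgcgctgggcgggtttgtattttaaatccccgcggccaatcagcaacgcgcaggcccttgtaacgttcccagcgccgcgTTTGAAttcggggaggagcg
Cdc20: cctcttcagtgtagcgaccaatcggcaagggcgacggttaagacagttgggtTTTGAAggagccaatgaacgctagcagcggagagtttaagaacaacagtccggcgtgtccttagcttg
For 16 of the 21 mitosis genes in the table (76.2%) a match lay in any of their windows. Single promoters held a match in 19.2% of cases, a share counted per promoter and not per gene. These shares are not like for like, since a gene can have several windows. Ccnb2 held a second match outside the stretch shown.

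Ube2c, which encodes the ubiquitin-conjugating enzyme of the anaphase-promoting complex, stood at 99.0 and 96.0 TPM in siControl plus DTPA and at 4.88, 4.62 and 4.72 TPM with the knockdown (−4.10, SE 0.04, adjusted p = 7.25e-13). Nusap1, a spindle protein gene, stood at 50.3 and 51.0 against 2.13, 2.103 and 1.74 TPM (−4.11, SE 0.07). Ccnb1, the mitotic cyclin B1 gene, stood at 103.1 and 99.1 against 9.42, 9.47 and 11.0 TPM (−3.23, SE 0.06). For all 3 genes the double-treated libraries were the lowest of the study by a wide margin, since siControl means were 198.6, 117.0 and 182.0 TPM and siZIP10 means 82.5, 49.9 and 101.2 TPM. Further falls were those of Hmmr (−4.17), Ccnb2 (−3.77), Kif4 (−3.53), Ckap2l (−3.21), Ccna2 (−3.19), Kif18b (−3.19), Birc5 (−3.12), Esco2 (−3.08), Plk1 (−2.96) and Cdc20 (−2.95). Their products are cyclins, spindle proteins, motor proteins, the survivin subunit, the cohesin acetyltransferase, and regulators of mitosis.

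All 26 tested DNA replication genes fell as well, with a median change of −1.11 against −0.83 at normal zinc. The difference was called lower for 14 of them and higher for Mcm10 (named after its values were seen). Mcm5, a subunit of the replicative helicase, stood at 46.5 and 47.8 against 5.01, 4.07 and 5.78 TPM (−3.03, SE 0.10). Rrm2, which supplies deoxyribonucleotides, fell by 2.55 (SE 0.07), Mcm6 by 2.51 (SE 0.05) and the licensing factor gene Cdc6 by 2.44 (SE 0.05). Arrest genes did not move in 1 direction, as 4 of 10 rose and 4 fell, beside 21.3% and 31.7% of all genes. Cdkn2d and Btg2 rose by 0.26 and 0.25, while Cdkn2c fell by 1.04 and Cdkn1a, the p21 gene, by 0.33.

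Genes of the red cell surface and membrane skeleton fell in 16 of 25 tested cases and rose in 4, with a median change of −0.42. The median was −0.03 at normal zinc, and the difference was lower for 19 and higher for 4. Slc4a1, which encodes the band 3 anion exchanger, stood at 241.4 and 226.2 TPM in siControl plus DTPA and at 23.2, 21.7 and 22.8 TPM in siZIP10 plus DTPA, 9.64% of DTPA alone (−3.32, SE 0.04, adjusted p = 6.9e-12). The siControl mean of Slc4a1 was 445.0 TPM and the siZIP10 mean 304.3 TPM, so that the knockdown effect was far smaller without DTPA (−0.55). Dmtn, the gene of the actin-bundling protein dematin, stood at 23.3 and 23.4 against 8.28, 7.03 and 7.81 TPM (−1.49, SE 0.06), and its other groups lay higher, at means of 48.0 and 45.5 TPM. Rhd of the Rh blood group (−1.62) and Tmod1 for the actin-capping tropomodulin (−1.45) fell too. Add2, for β-adducin, rose by 0.58 and the adhesion gene Icam4 by 0.42.

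Of 18 heme synthesis genes, 15 fell and 1 rose (median −0.45, against −0.13 at normal zinc), and the difference was lower for 12. Alad encodes the zinc enzyme that makes porphobilinogen. Its level was 316.8 and 313.5 TPM in siControl plus DTPA and 66.4, 61.4 and 64.9 TPM in siZIP10 plus DTPA, without overlap (−2.28, SE 0.04, adjusted p = 3.85e-11). The mitochondrial iron carrier gene Slc25a37 fell by 1.43 (SE 0.05) and Cpox by 0.93 (SE 0.03). Alas2, the erythroid gene of the rate-limiting first step, was not called, at 2495 and 2450 against 2367, 2343 and 2421 TPM (−0.06, adjusted p = 0.145). It was called lower under quantile normalization (−0.25) and turned to 0.06, uncalled, when rescaled to nuclear protein-coding genes. Alas1, the housekeeping form, rose by 0.28, a call lost in 8 of 23 alternatives. Iron genes moved both ways, with Tfrc for the transferrin receptor falling by 0.27 and with Tfr2, Slc40a1 for ferroportin and Steap3 rising by 0.55, 0.50 and 0.40. Of 16 iron genes 5 rose (31.25%) and 6 fell (37.5%), beside 21.3% and 31.7% of all genes. After the rescaling 9 rose and 5 fell.

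The globin genes split. Hba-a1 stood at 11761 and 11906 TPM in siControl plus DTPA and at 4212, 4194 and 4043 TPM in siZIP10 plus DTPA (−1.51, SE 0.06), and Hba-a2 fell by 1.82 (SE 0.25). The 2 adult α genes are near-identical copies, so their sum is the safer measure, and it fell from 14707 and 14269 to 5081, 4826 and 4808 TPM, 33.9% of DTPA alone. The siControl mean was 14457 TPM and the siZIP10 mean 13355 TPM, so only the double-treated libraries were low. Adult β-globin summed over the near-identical Hbb-bs and Hbb-bt was 29967 and 36483 against 37286, 33778 and 29640 TPM, with overlapping groups and a mean at 101.0% (exact permutation p = 1.0). The embryonic β-like genes rose. Hbb-bh1 stood at 1143 and 1134 TPM in siControl plus DTPA and at 5551, 5462 and 5248 TPM in siZIP10 plus DTPA (2.25, SE 0.04, adjusted p = 4.51e-11), beside 139.6 to 145.4 TPM in siControl. Hbb-y rose by 1.29 (SE 0.15) and the low Hbb-bh2 by 1.48 (SE 0.27), a call lost with a pseudocount of 0.1 (adjusted p = 0.0506) in a gene that passed the filter only through siZIP10 plus DTPA. Embryonic transcripts were 3.99% and 3.29% of all β and β-like transcripts in siControl plus DTPA and 13.5%, 14.5% and 15.7% in siZIP10 plus DTPA, without overlap (exact permutation p = 0.2). They were 0.508% to 0.709% in the libraries without DTPA. On the α side, the embryonic Hba-x fell by 0.96 and Hbq1b by 1.29.

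**Figure D3:**
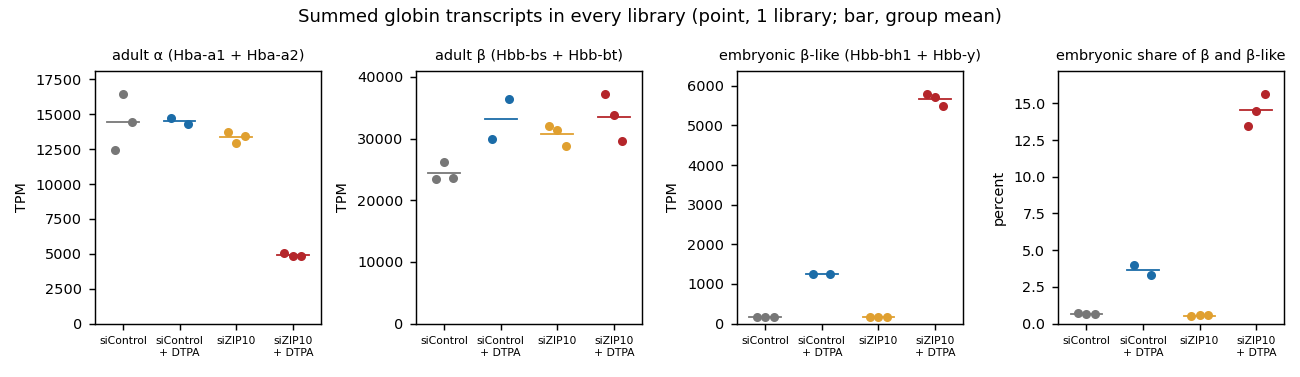
Summed TPM of the adult α, adult β and embryonic β-like globin genes, and the embryonic percentage of β and β-like transcripts, with 1 point per library and a bar at the group mean. The 3 siZIP10 plus DTPA libraries are low for α at 4808 to 5081 TPM, spread over the range of siControl plus DTPA for adult β, and highest for the embryonic genes at 5503 to 5802 TPM.

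Progenitor genes, which GATA1 lowers as erythroid cells mature, moved upward. Of 12 tested, 10 rose and 1 fell (median 0.68, against 0.13 at normal zinc), and the difference was called higher for 7. A fit of the low zinc groups alone gave 8 rises, and a filter of 5 TPM gave 6 among 8 tested. The median was 0.70 when siControl plus DTPA replicate 2 was left out. Kit, the stem cell factor receptor gene, stood at 20.75 and 20.49 TPM in siControl plus DTPA and at 59.8, 55.6 and 56.5 TPM in siZIP10 plus DTPA (1.43, SE 0.07, adjusted p = 7.44e-08). Gata2, the GATA factor of progenitors, stood at 40.1 and 38.7 against 80.7, 76.7 and 74.1 TPM (0.95, SE 0.05), and at 32.9 to 41.6 TPM without DTPA. Both genes were at their highest in the double-treated libraries. Myb rose by 1.73 (SE 0.13) from 1.92 and 1.75 TPM, and Myc by 1.11 (SE 0.12). Runx1 fell by 0.15, a call lost in 6 of 23 alternatives.

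Erythroid regulators were mixed, with 6 rises and 8 falls among 19. These became 3 and 9 when siControl plus DTPA replicate 2 was left out, and 9 and 7 after the rescaling. Nfe2 (−0.86), Epor for the erythropoietin receptor (−0.79), Klf3 (−0.54) and Gata1 (−0.51) fell, and Stat5a rose by 0.77. Gata1 stood at 1512 and 1403 against 1065, 997.2 and 997.0 TPM, and reads of the fusion and of the disrupted gene cannot be told apart. Its fall at normal zinc was 0.41 and the difference was not called (−0.10).

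The largest rises were mostly those of genes at low TPM in siControl. F2rl2, a protease-activated receptor gene, stood at 0.597 and 0.734 TPM (11 and 14 reads) in siControl plus DTPA and at 12.5, 12.1 and 12.1 TPM (232, 251 and 209 reads) with the knockdown (2.99, SE 0.14). Tph1, which acts in serotonin synthesis, rose by 2.88 (SE 0.12), the histidine decarboxylase gene Hdc by 2.80 (SE 0.13) and Ddc, an aromatic amino acid decarboxylase gene, by 2.31 (SE 0.15). Hdc stood at 2.00 and 2.49 against 20.7, 21.5 and 22.5 TPM, without overlap. Vim, the intermediate filament gene vimentin, stood at 25.4 and 24.6 against 151.9, 158.3 and 161.3 TPM (2.61, SE 0.05). Receptors followed with Cd200r2 (2.68), Il2rg (2.14) and Cd200r1 (2.13), and so did Alpk3 (2.54), Nyx (2.24), Rbm20 (2.12), Prex1 (2.11) and Abcc6 (2.06). F2rl2, Cd200r2 and Abcc6 passed the filter only through the siZIP10 plus DTPA libraries. Car1, a carbonic anhydrase gene, stood at 96.8 and 84.8 against 382.6, 396.9 and 407.5 TPM (2.11, SE 0.12), although it fell at normal zinc (−0.58). Car2, a carbonic anhydrase gene at far higher TPM, went the other way, from 3814 and 3881 to 1645, 1602 and 1658 TPM (−1.23, SE 0.03).

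Most markers of other blood lineages were too low to test, and those tested mostly rose. Gata2 and Hdc are among them and are already named above. The summed megakaryocyte markers were 26.7 and 25.7 TPM in siControl plus DTPA and 57.3, 58.0 and 58.5 TPM in siZIP10 plus DTPA. Of 11 such markers 4 were tested, and Gp1ba (1.35), Itgb3 (1.00) and Itga2b (0.96) rose while Gp9 fell by 0.79. Leaving out siControl plus DTPA replicate 1 or siZIP10 plus DTPA replicate 2 ended the call of Gp9. Ppbp, Gp1bb and Gp6 were at 0 in all 11 libraries, and Pf4 was 0.188 and 0.182 against 1.31, 3.00 and 2.40 TPM. Mast cell and basophil markers summed to 42.3 and 41.3 against 101.6, 100.0 and 97.4 TPM. Nearly all of this was Gata2 and Hdc, the only 2 of 10 tested. Cma1, Fcer1a, Ms4a2 and Mcpt8 were at 0. The untested Mcpt4 was 0.1225 and 0.1185 against 0.1219, 1.628 and 0.651 TPM, with overlapping groups. Myeloid markers summed to 3.22 and 3.27 against 6.80, 6.29 and 5.90 TPM, mostly Cd68 (0.85), the 1 marker of 14 tested, with Mpo, Elane, Itgam and Adgre1 at 0. Lymphoid markers summed to 0.686 and 0.901 against 3.25, 2.89 and 2.38 TPM, nearly all Cd79a, with Pax5 and Rag1 at 0. Cd79a, the 1 of 12 tested, passed the filter only through siZIP10 plus DTPA. The part of other cell types in the rises of progenitor genes and of the genes named with them was not tested beyond these levels.

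**Figure D4:**
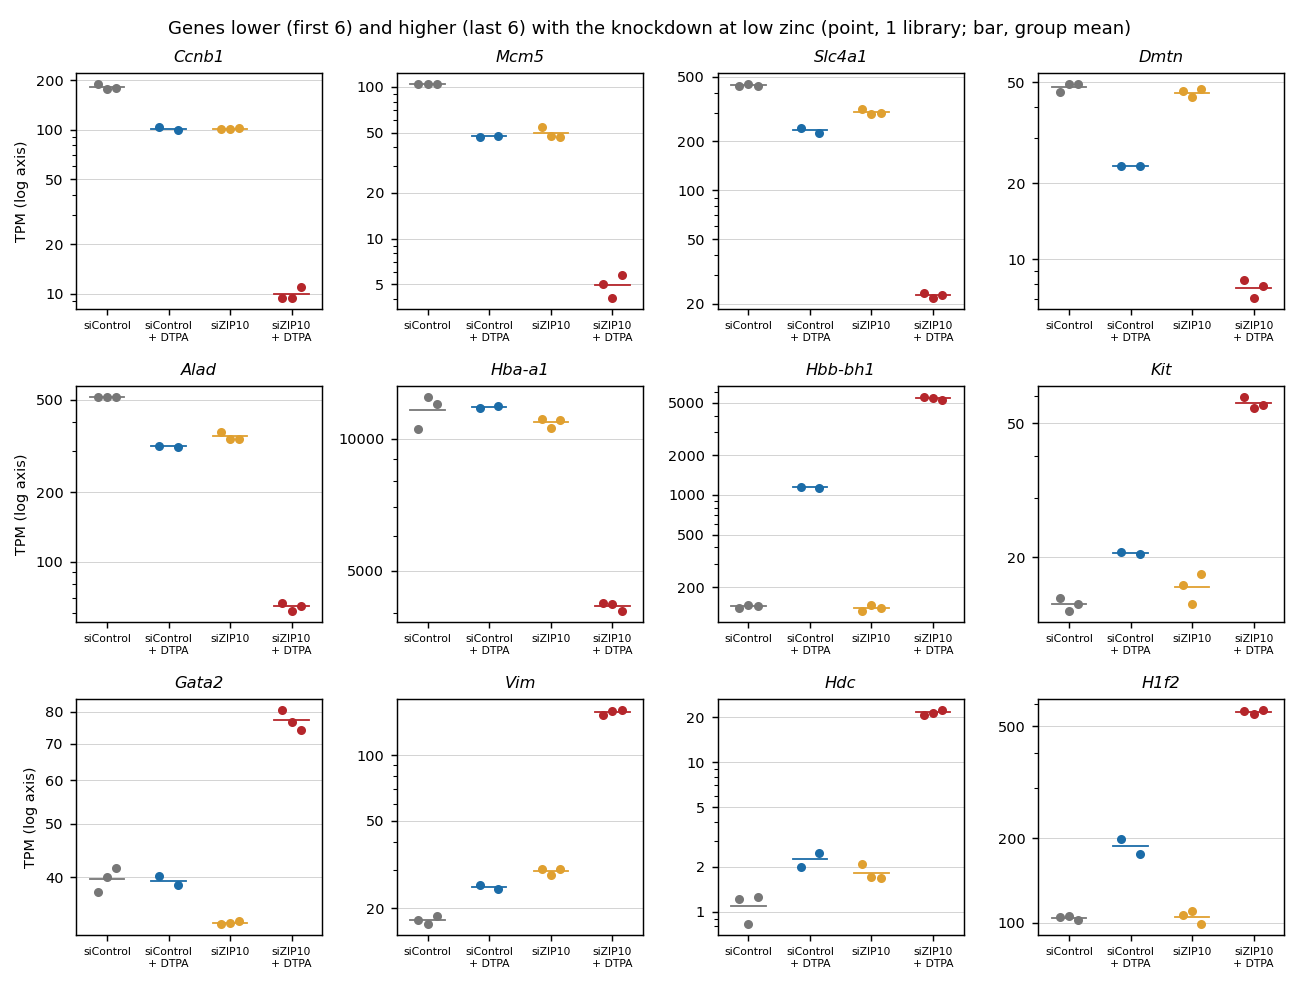
TPM on log axes of 12 genes in the 4 groups, with 1 point per library and a bar at the group mean. The siZIP10 plus DTPA libraries lie below all others for Ccnb1, Mcm5, Slc4a1, Dmtn, Alad and Hba-a1 and above all others for Hbb-bh1, Kit, Gata2, Vim, Hdc and H1f2.

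Energy metabolism and protein turnover genes fell in large groups by small amounts. Of 79 nuclear genes of the respiratory chain 72 fell and 2 rose (median −0.42, against −0.17 at normal zinc), of 76 mitochondrial ribosomal protein genes 51 fell and 1 rose (median −0.27), and of 35 proteasome genes 33 fell and 1 rose (median −0.39). These medians stayed below 0 in every alternative, at −0.31 or lower for the respiratory chain, −0.16 or lower for the mitochondrial ribosome and −0.27 or lower for the proteasome. Ndufa4 stood at 310.3 and 319.7 against 104.3, 104.8 and 109.2 TPM (−1.56, SE 0.04), and Cox6a1 fell by 0.81. Cox7a1, a tissue-restricted subunit gene, rose by 0.45. Mrpl28 and Psmc3 each fell by 0.60, while Psmb10, an immunoproteasome subunit gene, rose by 0.67. Of 19 cytosolic aminoacyl-tRNA synthetase genes 17 fell, Aars by 0.69, and 2 rose. Among 13 protein-coding genes of the mitochondrial genome 2 rose and none fell, but 0 rose and 2 fell under quantile normalization and 4 rose after the rescaling, and mt-Co1 rose by 0.29, a call that quantile normalization and the unfiltered fit each ended.

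Cholesterol synthesis genes fell in 20 of 21 cases with none rising (median −0.75), and the difference from normal zinc, where the median was −0.09, was called lower for 19. Fdft1, squalene synthase, stood at 228.2 and 223.7 against 99.7, 98.2 and 98.7 TPM (−1.18, SE 0.02), without overlap. Fdps fell by 1.23, Idi1 by 1.05 and Lss by 1.01. At normal zinc none of these 4 genes was called.

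Most listed genes of oxidant defence fell. Of 15 genes that remove peroxide and superoxide 11 fell and 1 rose (median −0.41), and of 17 NRF2 targets 13 fell and 3 rose (median −0.38). Gpx1, the glutathione peroxidase gene of red cells, stood at 3153 and 3131 TPM in siControl plus DTPA and at 1184, 1192 and 1195 TPM in siZIP10 plus DTPA (−1.40, SE 0.03, adjusted p = 2.39e-10). Prdx2, an abundant red cell peroxidase gene, fell by 0.91 (SE 0.02), Txn1 by 0.80 and Prdx1 by 0.68. The NRF2 targets Nqo1 and Gclm fell by 1.49 and 0.71, while Srxn1 rose by 0.58 and Prdx6 by 0.29.

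Cytosolic ribosomal protein genes rose in 61 of 82 cases and fell in 5 (median 0.20), against 8 rises and 12 falls at normal zinc, and the difference was called higher for 59. Rps9 rose by 0.55 and Rpsa fell by 0.38. As a share of TPM these genes took 10.8%, 10.7% and 11.0% against 9.43% and 9.36%. Replication-dependent histone genes, whose transcripts normally lack a poly(A) tail, are given as single genes, since only 21 of 64 passed the filter and a member can pass through the group where it is high. H1f2 stood at 198.4 and 175.0 against 566.3, 551.2 and 571.5 TPM (1.59, SE 0.05), and H4c9 rose by 1.83 (SE 0.17). With no filter on low values 59 histone genes were tested, of which 12 rose and 1 fell, with a median change of 0.09. The libraries were made from poly(A) RNA.

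**Figure D5:**
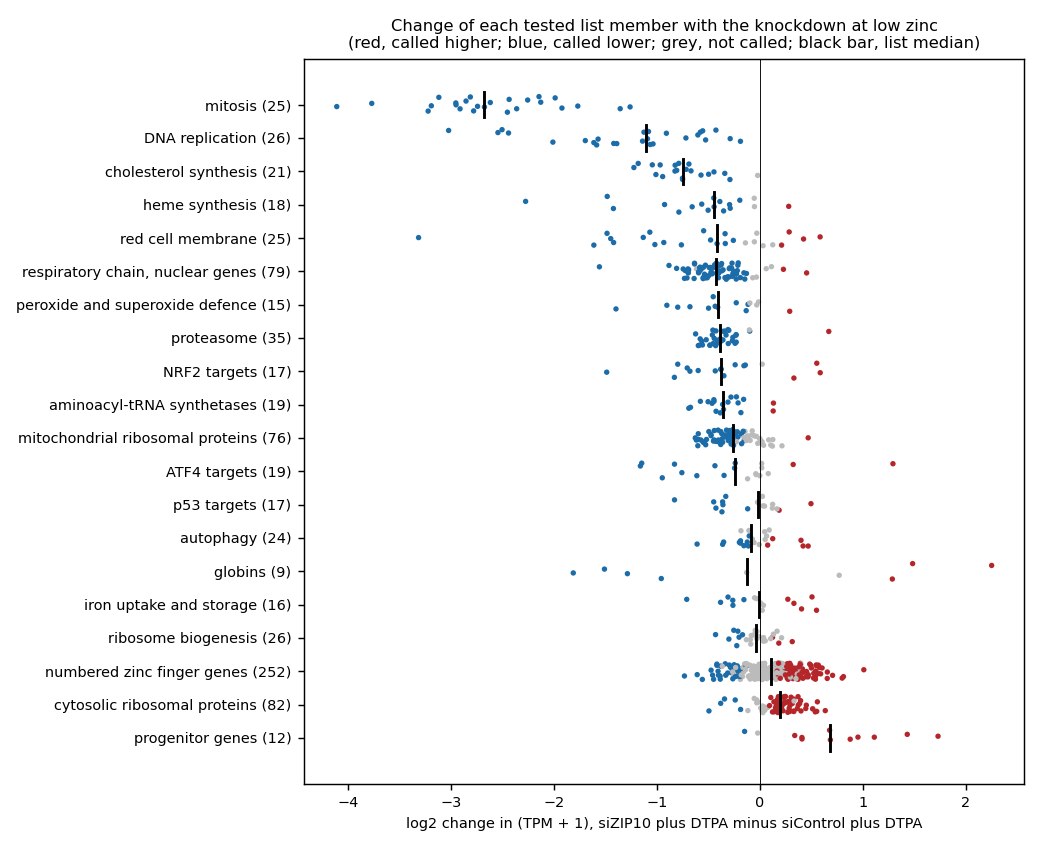
Log2 change with the knockdown at low zinc (x axis) of every tested member of 20 gene lists, 1 point per gene, with the number tested in brackets and a black bar at the list median. Mitosis and DNA replication genes lie wholly below 0, cholesterol genes at or below 0, and most progenitor genes above 0.

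Stress and death genes showed no uniform shift. Of 17 p53 targets 8 fell and 2 rose (median −0.02), against 12 rises and no fall at normal zinc, and the difference was called lower for 13. Sesn2 fell by 0.83 and Ddb2 rose by 0.49. After the rescaling 7 p53 targets rose and 7 fell, with a median of 0.09, and 1 rose when siControl plus DTPA replicate 2 was left out. ATF4 targets fell in 10 of 19 cases and rose in 2 (9 and 5 after the rescaling), with Nupr1 at −0.95 and Cebpb at 1.29. Of 21 unfolded protein response genes 7 fell (33.3%, near the 31.7% of all genes), Canx by 0.51. The 2 that rose (9.52%, beside 21.3% of all genes) included Dnajb9 at 0.63. After the rescaling 4 fell and 5 rose. Only 4 fell when siControl plus DTPA replicate 1, or siZIP10 plus DTPA replicate 2, was left out. Heat shock genes fell in 8 of 13 cases and rose in 1, against 5 and 4 after the rescaling. Among 19 regulators of cell death 4 rose and 4 fell (21.1% each, beside 21.3% and 31.7% of all genes). After the rescaling 11 rose and 3 fell. Bcl2l1, the gene of the survival protein BCL-XL, stood at 220.2 and 221.1 against 124.2, 121.3 and 125.1 TPM (−0.83, SE 0.03), although it had risen by 0.23 at normal zinc. The pro-death genes Bcl2l11 and Bid rose by 0.58 and 0.56, and Bak1 fell by 0.40. The highest change on this list was 1.06, in a gene not reported here, and the list median was −0.007.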

How the data were processed

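RNA was sequenced from poly(A) libraries of 4 groups of G1E-ER4 cells. The values deposited by the authors are TPM, which carry no read counts. The submitters' processing notes name the mm10 build, the aligner HISAT2 2.1.0, Trimmomatic 0.33, FastQC, edgeR and featureCounts. How these were set, in which order they ran, which annotation they used and whether strand was counted is not given in the sources used here, so values of genes that overlap others are uncertain. TPM times GENCODE M21 exon length gave whole reads within 0.1 read for 98.9% to 99.1% of values of up to 20 reads, and these recovered reads served the depth and 1 alternative.

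The authors' deposited TPM of 11 libraries were moved to the log2(TPM + 1) scale, on which changes of low genes are understated. The 11379 genes that averaged 1 TPM or more across those libraries were tested with limma 3.58.1 in R 4.3.3, with a variance trend, 4 group means, 7 residual and 3.21 prior degrees of freedom. The two-sided p was adjusted over all genes tested (Benjamini-Hochberg, threshold 0.05), and a gene called so is said to rise or fall. The contrasts were the knockdown at low zinc, the knockdown at normal zinc and their difference. Values in brackets without a unit are log2 changes, and SE is the model's standard error.

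The comparison, the 40 gene lists (1280 genes) and the rules were chosen with earlier results of these data known, so lists are described by counts and medians with no test of their own. Symbols of the histone list were extended after the files were read. Genes named are Slc39a10, Mt1, Mt2 and Slc30a1, the 15 largest rises and falls without overlap of libraries and at least 5 TPM in the higher group, the 6 largest differences each way, and up to 4 called members each way and 2 uncalled members of each list. Of these 281 genes, 132 are named, and some are not reported here. The fit was run on simulated data with independent normal errors and few changed genes. Such data lack the differences in make-up seen here, so they cannot show how the fits behave under them. Alternatives were another pseudocount, filters, scalings, a fit of the low zinc groups alone, no variance trend, a replicate block, voom, the duplicated file kept, and each library left out. Figures and summaries used matplotlib 3.10.9, scipy 1.17.1, pandas 2.3.3, numpy 2.4.6 and Python 3.11.15.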

Additional observations from a re-analysis of the deposited data

Results flagged for a closer look

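The knockdown effect itself differed between low and normal zinc for 1369 genes in the higher direction and 2318 in the lower direction, by the interaction test of limma with Benjamini-Hochberg adjustment. The difference is the log2 change at low zinc minus that at normal zinc. The genes with the largest positive differences were F2rl2 at 2.82, Car1 at 2.69, Cd200r2 at 2.56, Tph1 at 2.55, Hdc at 2.38 and H4c9 at 2.37. Car1 and H4c9 fell with the knockdown at normal zinc (−0.58 and −0.54) and rose at low zinc (2.11 and 1.83). The largest negative differences were those of Nusap1 at −2.90, Ube2c at −2.84, Hmmr at −2.77, Slc4a1 at −2.77, Esco2 at −2.56 and Ccnb1 at −2.39. All 6 of these genes fell in both settings, more at low zinc. No group held the 4 libraries needed to look for a single library far from the rest.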

How the results depend on the processing

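Of 129 called genes named in the text, 117 kept their call in every one of the 23 alternatives that tested them. Some genes were absent from an alternative, such as low genes with the filter of 5 TPM. Such absence was not counted as a loss. Rescaling to nuclear protein-coding genes gave 3744 rises against 2426, and those that fell were 2557 against 3611. With that rescaling 60.75% of called differences between low and normal zinc were higher, against 37.13%, and the median of all genes moved by more than 0.1. Median-of-ratios scaling, quantile normalization and voom gave 49.02%, 48.76% and 49.01% rises. With the duplicated file kept as labelled, the changes were −0.58 for Slc39a10 (adjusted p = 0.562), −0.50 for Mt1 and −1.998 for Mt2, because a library with no DTPA then stood in the DTPA group. Alas2 was 0.0604 after that rescaling, and the cause was not tested. Leaving out 1 library gave 1767 to 2441 rises and 2864 to 3611 falls, and differences of 947 to 1330 genes higher and 1798 to 2243 lower. Without siControl plus DTPA replicate 2 there were 1767 rises, and without siZIP10 plus DTPA replicate 2, the library richest in rRNA, 2308 rises and 3274 falls. Where an arm was left with 1 library, its spread was taken from the other groups.

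The labels number the replicates alike in each group. Libraries with the same number did not deviate together (correlations of −0.06 to 0.06 over 15 pairs of libraries), so the numbers were not treated as pairs. A replicate block gave 2299 rises and 3641 falls at low zinc, and differences of 1306 higher and 2335 lower. Depth limits low genes most, since Slc39a10 rested on 21 to 36 reads in siZIP10 libraries.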

Other observations

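Purine and folate genes were among those lower with the knockdown at low zinc. Of 13 genes of one-carbon and serine metabolism 9 fell and 1, not reported here, rose (median −0.27), with 6 falls after rescaling to nuclear protein-coding genes. Among the falls were Paics at −1.19, Shmt2 at −1.16 and Mthfd2 at −1.15. Glycolysis genes fell in 9 of 18 cases and rose in 5. Pklr, the red cell pyruvate kinase gene, stood at 102.8 and 98.1 TPM in siControl plus DTPA and 27.6, 25.9 and 28.3 TPM in siZIP10 plus DTPA (log2 change −1.85, SE 0.04), and Pfkp and Hk1 fell by 1.17 and 0.75. Hk2, which encodes another hexokinase, rose by 1.202.

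Numbered zinc finger genes, a large family of transcription factors, rose in 74 of 252 cases (29.4%) and fell in 34 (13.5%), beside 21.3% and 31.7% of all genes. After that rescaling, 124 rose and 17 fell. The median was 0.10, against −0.04 over all genes, with Zfp27 at 1.01 and Zfp59 at −0.73. Of 19 enzymes that hold zinc 11 fell and 4 rose (median −0.18), Alad and Car2 among the falls and Car1 among the rises. That became 6 and 6 after the rescaling (median −0.07), and 9 falls and 2 rises when siControl plus DTPA replicate 2 was left out. Interferon response genes rose in 7 of 13 cases and fell in 2 (median 0.27), beside 7 rises and no fall at normal zinc (median 0.30), and the difference between the effects was called lower for 4 and higher for none. Only 3 rose when siControl plus DTPA replicate 2 was left out, and 3 of 8 (median 0.05) with a filter of 5 TPM. Autophagy genes were mixed, with 10 falls and 5 rises among 24, and 5 falls and 9 rises after the rescaling. Leaving out siControl plus DTPA replicate 1 gave 6 falls, and leaving out siControl plus DTPA replicate 2 or siZIP10 plus DTPA replicate 3 gave 3 rises. In the main comparison the mitophagy receptor gene Bnip3l fell by 0.61 and Sqstm1 rose by 0.42. At normal zinc 12 of the 24 autophagy genes rose and 1 fell. The difference between the effects was called lower for 13 and higher for 3, beside 20.4% and 12.0% of all genes. Genes of late maturation fell in 6 of 12 cases and rose in 2 (4 and 4 after the rescaling). At normal zinc 8 of these 12 rose and 1 fell, and the difference was called lower for 10 and higher for 1. Ribosome biogenesis genes fell in 7 of 26 cases (26.9%) and rose in 3 (11.5%), both below the shares of all genes (31.7% and 21.3%). After the rescaling 4 of them fell and 10 rose.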
